A study of Mus musculus with 6 samples.

Results

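Long intergenic noncoding RNAs (lincRNAs) are transcripts that lie between protein-coding genes, are made by RNA polymerase II like messenger RNAs, and are not translated into a known protein. The transcripts described here are those of the deposited table that GENCODE M21, a gene annotation of the mouse genome build mm10, types as lincRNA, matched by transcript identifier. They numbered 1280, from 835 genes, of 68473 transcripts in the table (1.87%). They were described by the length of genome they cover and by the distance from their start to the nearest start of a protein-coding transcript. GENCODE M21 holds 9101 lincRNA transcripts in all, and those outside the table were not analysed here.

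The libraries came from C57BL/6 mouse embryonic stem cells grown with serum, LIF and the inhibitors CHIR99021 and PD0325901, in all 3 groups. The groups were control cells, a first Mettl3 knockout (KO1) and a second Mettl3 knockout (KO2), with 2 libraries each, and the series set out to compare transcription rates among them. How the knockouts were made, whether each is 1 clone, and whether the 2 libraries of a group came from separate cultures are not given in the labels, so a p-value here reflects the spread between these libraries, which may be technical. Each library was made by mNET-seq, in which chromatin is cut with micrococcal nuclease, RNA polymerase II is captured with an antibody, and the short RNA held by the polymerase is sequenced.

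Mettl3 is the enzyme of the complex that writes N6-methyladenosine (m6A) onto nascent RNA. Many lincRNA promoters lie close to, and point away from, the promoter of a coding gene, and polymerase that starts there often stops early. Complexes such as Integrator and Restrictor end this early transcription, and the nuclear exosome degrades the RNA that is released, so lincRNAs as a class are known for short-lived transcripts.

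The deposited value is an escaping index in log2. By its name it sets polymerase that has moved on from a transcript's start against polymerase near the start. It is a ratio within 1 transcript, and it measures neither how much of an RNA is present nor how much polymerase a gene carries. An index of 0 is a ratio of 1, and a difference of 1 is a doubling of the ratio. The sources used here give neither the windows of the ratio, nor the use of strand in counting, nor the read depth. Across the 1280 lincRNA transcripts, Pearson's r between the replicate libraries of a group was 0.956 for control, 0.962 for KO1 and 0.964 for KO2, a description over transcripts of the same libraries. All 10 embryonic stem cell marker genes looked for had a transcript in the table, against 3 of 7 fibroblast, 1 of 3 neural and 0 of 5 endoderm markers. The index of Mettl3 itself was 2.69 and 2.46 in control, 2.44 and 2.42 in KO1, and 2.10 and 2.30 in KO2 for its longest coding transcript. The limma adjusted p was 0.680 in KO1 and 0.239 in KO2. This ratio says nothing about whether the Mettl3 product was lost.

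The start sites of the lincRNA transcripts differed in base composition with their distance from a coding gene, and the promoters below, each of a transcript that passed the test in KO2 or in the average of the knockouts, show both ends of that range. They are RefSeq promoter windows of GRCm38.p6 (the same build as mm10), 300 bases from 250 bases before the gene's start, written 5' to 3' on the transcript's strand, with every CG dinucleotide in capitals. They were chosen after the values were seen. The first 3 begin within 222 bases of a coding start on the opposite strand: 6030443J06Rik next to Orc5, a subunit of the origin recognition complex (chr5:22550163-22550462, plus strand), 4930554H23Rik next to Otud7a, a deubiquitinase (chr7:63444480-63444779, minus strand), and 2210406O10Rik next to Grpel1, a mitochondrial co-chaperone (chr5:36464805-36465104, minus strand).
6030443J06Rik: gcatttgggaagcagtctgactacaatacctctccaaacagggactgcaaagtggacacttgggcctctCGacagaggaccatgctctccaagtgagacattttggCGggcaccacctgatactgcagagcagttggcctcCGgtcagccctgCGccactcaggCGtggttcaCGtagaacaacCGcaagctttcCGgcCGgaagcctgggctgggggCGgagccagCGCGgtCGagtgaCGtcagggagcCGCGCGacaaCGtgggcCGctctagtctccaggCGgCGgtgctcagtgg
4930554H23Rik: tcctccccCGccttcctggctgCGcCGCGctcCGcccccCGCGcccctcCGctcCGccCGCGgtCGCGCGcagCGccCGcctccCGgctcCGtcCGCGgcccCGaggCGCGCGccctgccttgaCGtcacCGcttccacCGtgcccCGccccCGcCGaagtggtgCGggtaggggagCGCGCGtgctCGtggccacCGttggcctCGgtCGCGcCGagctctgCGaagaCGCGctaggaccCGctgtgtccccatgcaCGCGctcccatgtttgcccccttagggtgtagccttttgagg
2210406O10Rik: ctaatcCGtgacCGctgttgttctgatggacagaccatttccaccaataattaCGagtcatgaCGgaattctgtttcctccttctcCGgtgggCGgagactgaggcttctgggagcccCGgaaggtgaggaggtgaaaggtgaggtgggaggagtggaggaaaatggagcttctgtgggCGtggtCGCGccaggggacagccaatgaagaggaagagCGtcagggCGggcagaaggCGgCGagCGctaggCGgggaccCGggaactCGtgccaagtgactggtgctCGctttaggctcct

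The other 3 begin at least 40224 bases from the nearest coding start: Gm3764 (chr3:88214232-88214531, plus strand), Mir9-3hg, the host transcript of a miR-9 gene (chr7:79515185-79515484, plus strand), and 2210417A02Rik (chr5:148741590-148741889, plus strand).
Gm3764: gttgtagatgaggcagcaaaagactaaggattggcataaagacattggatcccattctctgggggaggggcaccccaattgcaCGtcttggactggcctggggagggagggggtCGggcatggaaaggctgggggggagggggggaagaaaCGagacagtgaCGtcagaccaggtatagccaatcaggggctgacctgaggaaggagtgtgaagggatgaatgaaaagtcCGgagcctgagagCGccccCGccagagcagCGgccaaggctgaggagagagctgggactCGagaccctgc
Mir9-3hg: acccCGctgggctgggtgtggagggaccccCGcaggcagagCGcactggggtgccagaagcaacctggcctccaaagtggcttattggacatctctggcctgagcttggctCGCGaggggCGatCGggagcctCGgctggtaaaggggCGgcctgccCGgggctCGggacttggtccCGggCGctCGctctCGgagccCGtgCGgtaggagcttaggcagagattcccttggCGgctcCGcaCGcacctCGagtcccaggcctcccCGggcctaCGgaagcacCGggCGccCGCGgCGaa
2210417A02Rik: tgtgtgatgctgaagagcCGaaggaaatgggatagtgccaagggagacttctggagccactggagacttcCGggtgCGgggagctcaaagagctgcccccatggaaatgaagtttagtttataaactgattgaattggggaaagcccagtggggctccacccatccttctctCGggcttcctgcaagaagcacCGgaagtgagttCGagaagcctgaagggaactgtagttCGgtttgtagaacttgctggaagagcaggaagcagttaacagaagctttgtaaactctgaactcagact

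The windows near a coding start held 21 CG dinucleotides in 6030443J06Rik, 46 in 4930554H23Rik and 19 in 2210406O10Rik. Those far from one held 9 in Gm3764, 28 in Mir9-3hg and 7 in 2210417A02Rik, so Mir9-3hg was as rich in CG as the near group. Over all members, 735 transcripts of 399 genes matched a RefSeq symbol, and 428 of them started within 100 bases of the RefSeq start, in 282 distinct windows. The median number of CG per window was 28 in the 85 windows under 1 kb from a coding start, 14 in 8 windows at 1 to 5 kb, 8 in 107 windows at 5 to 50 kb and 7 in 82 windows at 50 kb or more, against 7 over all 32851 promoters of the RefSeq table. By these medians, the windows next to coding starts were richer in CG, and the distant ones were close to the promoters of the table as a whole. The counts overlapped widely, from 2 to 57 under 1 kb and from 0 to 47 at 50 kb or more. The letters TATAAA, searched on the transcript's strand only, stood in 1.18% of windows under 1 kb, in 9.35% at 5 to 50 kb, in 9.76% at 50 kb or more and in 8.32% of all promoters. Among the 6 windows shown, 2210417A02Rik holds them.

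The transcripts with these promoters did not all move the same way. The index of 6030443J06Rik (span 150786 bases) was 5.34 and 5.57 in control, 4.32 and 3.97 in KO1, and 4.18 and 4.19 in KO2. The 4 knockout libraries were below both control libraries, and the fall was 1.27 ± 0.20 (SE, log2) in KO2 with a limma adjusted p of 0.0348. The index of 2210406O10Rik (span 6469 bases) was 0.49 and 0.83 in control, 1.54 and 1.89 in KO1, and 1.41 and 1.46 in KO2, and it rose by 0.91 ± 0.20 in the average of both knockouts (adjusted p = 0.0477). Far from coding starts, Mir9-3hg (span 15825 bases) was at 0.72 and 1.32 in control and at -0.18 and -0.17 in KO2, and 2210417A02Rik (span 1300 bases) at 1.81 and 1.00 in control and -0.73 and -0.35 in KO2. Mir9-3hg fell by 1.19 ± 0.27 and 2210417A02Rik by 1.94 ± 0.32 in KO2 (adjusted p = 0.0498 and 0.0349). In both KO1 libraries 2210417A02Rik stood at 0.00, a ratio of 1.

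Before any comparison of groups, the level of the index followed the length of genome covered. lincRNA transcripts spanned 631 to 515207 bases, with a median of 7139, against 18800 for the 33985 protein-coding transcripts. They had a median of 3 exons, and 110 had a single exon. The median index of lincRNA transcripts was 2.54 and 2.62 in the control libraries, against 4.21 and 4.24 for protein-coding transcripts, so the lincRNA class lay lower on this ratio.

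Within ranges of the same span the gap between the classes was smaller. For the 196 lincRNA transcripts under 2 kb the control medians were 0.06 and 0.00, against 0.03 and 0.03 for 1527 coding transcripts. At 2 to 5 kb they were 1.88 and 1.82 (n = 313), against 1.63 and 1.65 for coding transcripts. From 5 kb on lincRNA transcripts were lower, with 3.03 and 2.98 against 3.50 and 3.52 at 5 to 20 kb (n = 500), 4.56 and 4.60 against 5.31 and 5.34 at 20 to 100 kb (n = 222), and 6.04 and 6.19 against 6.68 and 6.70 at 100 kb or more (n = 49). Across the 1280 transcripts, Spearman's rho between the span and the mean control index was 0.66, and between the spliced length and the mean control index 0.12. For coding transcripts these were 0.73 and 0.51. These are descriptions across transcripts, many of which share a gene, and all share the same libraries.

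**Figure D1:**
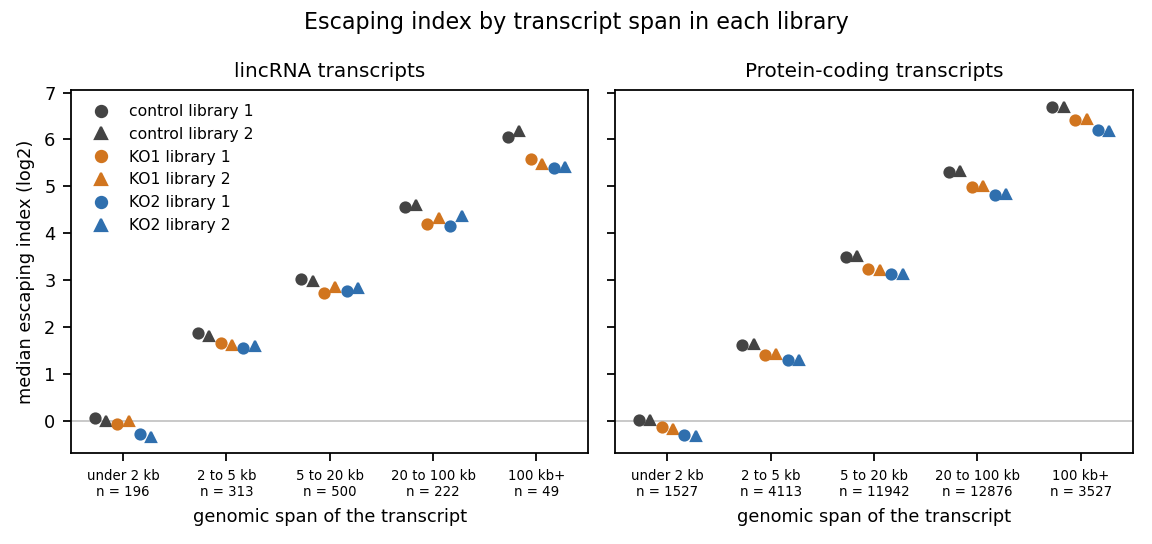
Median escaping index (log2, vertical axis) of lincRNA transcripts (left) and protein-coding transcripts (right) in 5 ranges of genomic span (horizontal axis), with 1 point per library and the number of transcripts under each range. The index climbs with span in both classes, from about 0 under 2 kb to 6.04 and 6.19 in the control libraries for lincRNAs of 100 kb or more, and the knockout libraries lie below both controls from 2 kb up in both classes.

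The extremes of length show the same order in single transcripts. The longest lincRNA, Gm26561 (chromosome 17, 70878078 to 71393284, plus strand, 515207 bases, which overlaps a coding gene on its own strand), had an index of 12.88 and 10.84 in control, 12.76 and 14.11 in KO1, and 12.97 and 13.40 in KO2. Its 2 control libraries differed by more than most group differences, and no comparison passed the test. Pvt1, a lincRNA next to the oncogene Myc (chromosome 15, 62038050 to 62378096, 340047 bases), stood at 7.64 and 7.83 in control, 7.52 and 7.30 in KO1, and 7.48 and 7.61 in KO2. The shortest, Gm40040 (chromosome 3, 41481761 to 41482391, minus strand, 631 bases), was at -0.57 and -0.90 in control, -1.18 and -1.05 in KO1, and -0.64 and -0.79 in KO2. None of the 5 longest and 5 shortest transcripts passed the limma test in any comparison.

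Position and structure went with the level too. By distance to the nearest coding start, the control medians were 1.81 and 1.86 under 1 kb (n = 288), 1.72 and 1.65 at 1 to 5 kb (n = 89), 2.70 and 2.76 at 5 to 50 kb (n = 538), and 3.12 and 3.17 at 50 kb or more (n = 365). By exons they were 0.77 and 0.78 for single-exon transcripts, 1.86 and 1.91 with 2 exons (n = 443), 2.79 and 2.84 with 3 (n = 339), and 3.97 and 4.10 with 4 or more (n = 388). Spearman's rho between distance and the mean control index was 0.17. Among transcripts of 5 to 20 kb the control medians were 1.98 and 2.00 under 1 kb from a coding start (n = 100), 1.84 and 2.12 at 1 to 5 kb (n = 25), 3.27 and 3.22 at 5 to 50 kb (n = 234), and 3.13 and 3.08 at 50 kb or more (n = 141). The 2 nearer ranges were lower there, and the farthest was not the highest.

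In the knockouts the index of most lincRNA transcripts was lower than in control, as it was over the whole table. The median over lincRNA transcripts was 2.58 ± 0.054 (SD of library medians, n = 2) in control, 2.44 ± 0.023 in KO1 and 2.38 ± 0.0010 in KO2. The median change against control was -0.16 (log2) in KO1, -0.25 in KO2, and -0.21 when both knockouts were averaged. Over all 68473 transcripts the medians were -0.21, -0.32 and -0.26, and over protein-coding transcripts -0.28, -0.43 and -0.35. So the lincRNA medians fell less than that of the table, and relative to it, with each library centred on its own median, they were 0.06, 0.08 and 0.06, which is the opposite sign. A change below 0 was found in 798 of 1280 members in KO1 (62.3%, against 65.7% of all transcripts), in 847 in KO2 (66.2% against 71.4%) and in 835 in the average (65.2% against 70.2%). These shares are near or below those of the whole table and show nothing particular to lincRNAs.

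The test was limma, fitted per transcript over the whole table with Benjamini-Hochberg adjustment over all 68473 transcripts and a threshold of 0.05. In KO2 against control, 99 lincRNA transcripts passed (7.73%), beside 10.5% of the whole table. Of these, 86 transcripts of 74 genes were lower (6.72%, against 10% of the table) and 13 of 12 genes were higher (1.02%, against 0.407%). In the average of both knockouts 78 passed (6.09%, against 9.04% of the table), with 65 of 57 genes lower (5.08%, against 8.69%) and 13 of 10 genes higher (1.02%, against 0.356%). At an unadjusted p under 0.05, 61 lincRNA transcripts were higher and 299 lower in KO2, beside 32.1% of the table in either direction, and 62 were higher and 268 lower in the average, beside 31.3%. In KO1, limma called 0 transcripts, lincRNA or other, and at an unadjusted p under 0.05 there were 77 higher and 184 lower lincRNA transcripts, beside 24.3% of the whole table. Called falls in KO2 ran from 0.72 to 2.83 on the log2 scale, and called rises from 0.95 to 2.10.

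KO2 and the average shared 54 of these calls, which is part of the design, since the average contains KO2 and both use the same controls. All adjusted p-values of called lincRNAs lay between 0.0325 and 0.0498, close to the threshold. No lincRNA call was left in the same test after centring each library on its median, after quantile normalization, or without any 1 of the 6 libraries (control, KO1 or KO2, replicate 1 or 2). The spread between replicates was also wider for lincRNA than for coding transcripts, with a median within-group SD that was 0.23 for control, 0.24 for KO1 and 0.26 for KO2, against 0.19, 0.18 and 0.17.

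By distance to the nearest coding start, the lincRNA transcripts closest to one were lower by more than the other lincRNA transcripts in KO2, and about as low as coding transcripts. The median change in KO2 was -0.42 under 1 kb (quartiles -0.85 and -0.01), -0.08 at 1 to 5 kb, -0.25 at 5 to 50 kb and -0.19 at 50 kb or more. In KO1 the medians were -0.21, 0.02, -0.15 and -0.21. Relative to the median of all transcripts, only the closest range was below 0 in KO2 (-0.09), and the others were at 0.25, 0.08 and 0.14. In KO2 219 of 288 transcripts under 1 kb had a change below 0 (76.0%), against 50 of 89 (56.2%), 343 of 538 (63.8%) and 235 of 365 (64.4%). The share was 71.4% over all transcripts and 78.0% over protein-coding transcripts, whose median change in KO2 was -0.43. Called transcripts made up 10.1%, 3.37%, 7.62% and 7.12% of the 4 ranges in KO2, beside 10.5% of the whole table.

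Most of the closest transcripts, 240 of 288, were divergent, that is, on the opposite strand and pointing away from the coding start. Their median change was -0.25 in KO1 and -0.44 in KO2. Within this distance the KO2 change was deepest in the shortest and the longest transcripts. The 48 under 2 kb had library medians of -0.34 and -0.26 in control, -0.20 and -0.77 in KO1, and -0.79 and -1.25 in KO2. Their median change was -0.26 in KO1 and -0.72 in KO2, and in KO2 43 of the 48 lay below 0. The KO1 libraries overlapped the controls here and the KO2 libraries did not. The 11 of 100 kb or more, from 8 genes, had a median change of -1.01 in KO2, all 11 below 0, and 3 of them are models of 6030443J06Rik. At 20 to 100 kb the closest transcripts were not the lowest, and there was no steady order with distance. The KO2 median was -0.21 for the 55 under 1 kb, -0.04 for 8 at 1 to 5 kb, -0.48 for 71 at 5 to 50 kb and -0.41 for 88 at 50 kb or more. Whether reads of the neighbouring coding gene enter the index of such transcripts was not tested.

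By span, the median change in KO2 was -0.40 under 2 kb, -0.19 at 2 to 5 kb, -0.20 at 5 to 20 kb, -0.38 at 20 to 100 kb and -0.32 at 100 kb or more. In KO1 it was -0.14, -0.17, -0.10, -0.30 and -0.32. There was no steady order with span, and across transcripts Spearman's rho between span and change was -0.04 in KO1 and -0.02 in KO2, while that between distance and change was 0.00 in KO1 and 0.07 in KO2. In coding transcripts the KO2 medians were -0.31, -0.38, -0.38, -0.49 and -0.51 over the same ranges. Of the 49 lincRNAs of 100 kb or more, from 32 genes, 43 had a change below 0 in KO2 (87.8%). The share was 71.4% over all transcripts and 81.6% over coding transcripts of that span. Relative to the median of all transcripts, 24 of the 49 lay below 0 in KO2. Of the 49, 6 were called lower (12.2%), beside 10% of the table. Overlap with a coding gene, found for 165 members, went with a median KO2 change of -0.21, against -0.25 without overlap, and for the 96 members that begin under 5 kb after the end of a coding gene on the same strand it was also -0.21.

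**Figure D2:**
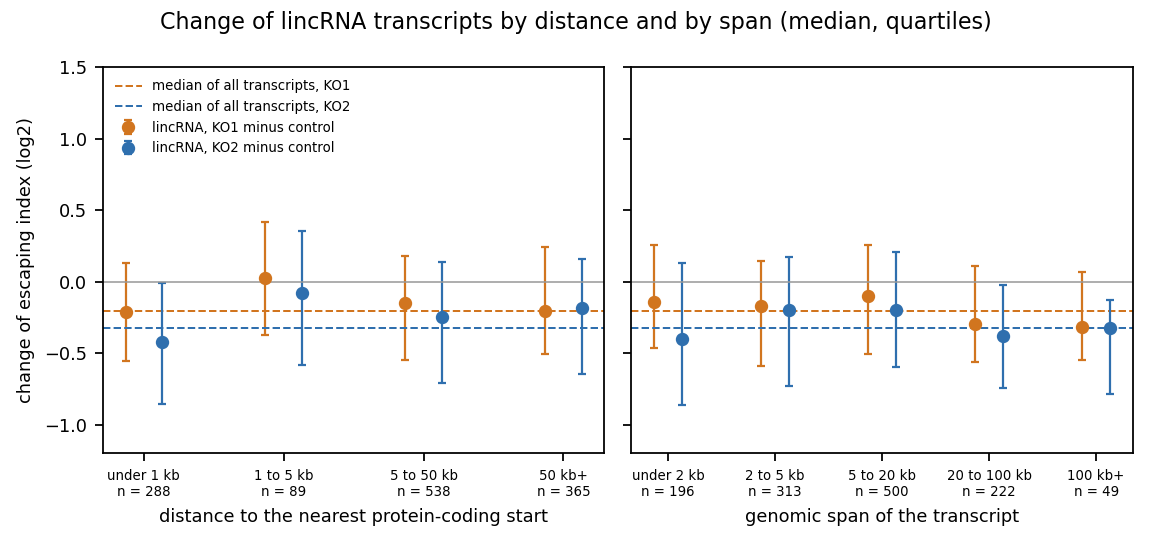
Median change of the escaping index against control (log2, vertical axis) for lincRNA transcripts by distance to the nearest protein-coding start (left) and by genomic span (right), in KO1 and KO2. Points are medians over the n transcripts under each range, bars run from the lower to the upper quartile, and dashed lines mark the median of all transcripts (-0.21 in KO1 and -0.32 in KO2). The KO2 median is lowest, at -0.42, under 1 kb from a coding start.

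Among single lincRNAs, the deepest falls in KO2 included transcripts right beside a coding start. 4930532G15Rik, a single-exon transcript that begins 179 bases from Eprs, the glutamyl-prolyl-tRNA synthetase gene (chromosome 1, 185361409 to 185362865, minus strand), had an index of -1.10 and -1.02 in control, -1.82 and -1.63 in KO1, and -3.73 and -3.61 in KO2. The groups did not overlap, and the KO2 libraries were lowest. It fell by 2.61 ± 0.21 (SE) in KO2 and by 1.63 ± 0.18 in the average (limma adjusted p = 0.034 and 0.0325). Gm9889, also of 1 exon and 78 bases from S1pr1, a receptor for sphingosine 1-phosphate (chromosome 3, 115715150 to 115716728, plus strand), was at -1.93 and -1.50 in control, -2.40 and -2.10 in KO1, and -4.15 and -4.44 in KO2. It fell by 2.58 ± 0.26 in KO2 (adjusted p = 0.034), and its KO1 libraries lay nearer the controls. 2810414N06Rik, 353 bases from Edem3, a gene of endoplasmic reticulum protein degradation, was at 2.87 and 2.70 in control, 1.72 and 1.85 in KO1, and 0.31 and 0.94 in KO2, a fall of 2.16 ± 0.26 in KO2 (adjusted p = 0.034).

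Other divergent transcripts were about equally low in KO1 and KO2. Fam120aos, which lies 270 bases from and opposite Fam120a (chromosome 13, 48968287 to 48972031, plus strand), was at 3.66 and 3.51 in control, 2.03 and 2.22 in KO1, and 2.34 and 2.29 in KO2. Its fall was 1.27 ± 0.18 in KO2 and 1.37 ± 0.16 in the average (adjusted p = 0.034 and 0.0325). 4930554H23Rik, whose CG-rich promoter beside Otud7a is shown above and which spans 99840 bases in 10 exons, was at 2.85 and 2.59 in control, -0.47 and 0.48 in KO1, and 0.59 and -0.06 in KO2. It fell by 2.58 ± 0.34 in the average of both knockouts (adjusted p = 0.0325).

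Falls of like size occurred far from coding genes. 2700054A10Rik (chromosome 17, 13489273 to 13668891, minus strand, 179619 bases), 91193 bases from the nearest coding start, was at 6.96 and 6.89 in control, 4.49 and 5.06 in KO1, and 5.08 and 4.95 in KO2. Its fall was 2.03 ± 0.20 in the average (adjusted p = 0.0325). Gm29266 (chromosome 14, 60485208 to 60599031, plus strand, 113824 bases), 107516 bases from Amer2, was at 5.60 and 6.19 in control, 4.11 and 4.06 in KO1, and 3.46 and 3.66 in KO2, and fell by 2.33 ± 0.24 in KO2 (adjusted p = 0.034). Gm36543, 171676 bases from Smlr1, was at 1.28 and 1.70 in control, at -0.44 in both KO1 libraries, and at -0.51 and -0.17 in KO2, and fell by 1.88 ± 0.21 in the average (adjusted p = 0.0325). In these 3 transcripts every knockout library lay below both controls.

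Gm3764, whose distant promoter is shown above (longer model, 11552 bases, chromosome 3, 88214495 to 88226046), had a low index in every library. It was at -2.02 and -2.12 in control, -3.49 and -3.42 in KO1, and -5.12 and -4.70 in KO2, a fall of 2.83 ± 0.24 in KO2 (adjusted p = 0.034). Tmem250-ps, a transcript of 3708 bases on chromosome 2, was at 4.72 and 4.28 in control, 2.74 and 2.79 in KO1, and 3.11 and 2.67 in KO2, and fell by 1.67 ± 0.21 in the average (adjusted p = 0.0325). 4930412M03Rik, which overlaps a coding gene on the opposite strand and lies 10053 bases from the start of Rai1, was at 1.86 and 1.92 in control, 0.49 and 0.16 in KO1, and 0.66 and 0.73 in KO2, and fell by 1.38 ± 0.18 in the average (adjusted p = 0.0325). In Gm47667 only the KO2 libraries stood apart from control: it was at 0.32 and 0.00 in control, 0.68 and 0.00 in KO1, and -2.57 and -1.99 in KO2, where it fell by 2.45 ± 0.34 (adjusted p = 0.034), and 2 of its values are a ratio of 1. 5930403N24Rik, 2169 bases from Marcks, was at 0.75 and 0.88 in control, -0.95 and -1.26 in KO1, and -0.18 and 0.14 in KO2, and fell by 1.38 ± 0.20 in the average (adjusted p = 0.0331). AC158605.1, of 23254 bases, was at 2.76 and 3.12 in control, 1.88 and 1.99 in KO1, and 1.51 and 1.49 in KO2, and fell by 1.44 ± 0.20 in KO2 (adjusted p = 0.034). All these falls kept their sign relative to the shift of the whole table, with centred changes in KO2 from -0.51 for 5930403N24Rik to -2.51 for Gm3764.

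Fewer lincRNAs rose, and in several the risen model was 1 of many of its gene. Snhg6, a host gene of small nucleolar RNA, rose in KO2 in a model of 1201 bases (chromosome 1, 9942023 to 9943223, minus strand), with 0.59 and 0.69 in control, 0.92 and 0.82 in KO1, and 2.24 and 2.01 in KO2. This model overlaps a coding gene on the opposite strand. The rise was 1.48 ± 0.19 in KO2 and 0.85 ± 0.17 in the average (limma adjusted p = 0.034 and 0.0417). Gm2694, 785 bases from Cbln1, a secreted synapse organizer, rose in a model of 52157 bases by 1.18 ± 0.19 in KO2 (adjusted p = 0.0349), from 3.79 and 4.07 in control to 5.24 and 4.99, with 4.32 and 4.34 in KO1. Rian, the imprinted host of many small nucleolar RNAs on chromosome 12, rose in a model of 8741 bases from 1.05 and 1.14 in control to 2.05 and 2.04 in KO1 and 2.11 and 2.16 in KO2. The rise was 1.04 ± 0.17 in KO2 and 0.99 ± 0.15 in the average (adjusted p = 0.0349 and 0.0335), and the 4 knockout libraries lay close together above both controls.

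Rises occurred beside coding starts too. 2210406O10Rik, divergent from Grpel1, rose in a model of 9044 bases, with 1.14 and 0.65 in control, 2.36 in both KO1 libraries, and 2.02 and 1.98 in KO2. The rise was 1.29 ± 0.19 in the average (adjusted p = 0.0335). Gm26582, 22 bases from Cdkl2, a protein kinase gene, overlaps a coding gene on the opposite strand. It was at 1.28 and 1.22 in control, 1.66 and 2.03 in KO1, and 2.37 and 2.67 in KO2, and rose by 1.27 ± 0.22 in KO2 (adjusted p = 0.0354). Gm10655, a single-exon transcript 173 bases from Tle3, a transcriptional corepressor, was at 0.81 and 0.31 in control, 2.11 and 2.05 in KO1, and 1.00 and 1.55 in KO2, and rose by 1.12 ± 0.24 in the average (adjusted p = 0.0488). 2010110K18Rik, 379 bases from the cell cycle phosphatase gene Cdc25c, was at 2.01 and 1.99 in control, 2.79 and 3.05 in KO1, and 2.75 and 2.56 in KO2, a rise of 0.79 ± 0.17 in the average (adjusted p = 0.0457). Gm10655 and 2010110K18Rik each had 2 models. The other model did not rise, with an average change of -0.17 in Gm10655 and -0.48 in 2010110K18Rik, and did not pass.

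Gm20735 (chromosome 8, 122445341 to 122451287, minus strand), which overlaps a coding gene on the opposite strand, was at 0.36 and 0.37 in control, 1.85 and 1.09 in KO1, and 1.69 and 1.91 in KO2. It rose by 1.43 ± 0.29 in KO2 and 1.27 ± 0.25 in the average (adjusted p = 0.0421 and 0.043). Gm48975 was at -0.13 and -1.31 in control, 0.00 in both KO1 libraries and 1.59 and 1.17 in KO2, and rose by 2.10 ± 0.41 in KO2 (adjusted p = 0.04), with 2 values at a ratio of 1. Gm43397, of 791 bases, was at -0.12 and -0.48 in control, 1.59 and 1.19 in KO1, and 0.00 and 0.49 in KO2, and rose by 1.12 ± 0.24 in the average (adjusted p = 0.0483). Its KO2 value of 0.00 is a ratio of 1. Without strand information, reads of a lincRNA and of a coding gene that overlaps it on the other strand cannot be told apart. Relative to the shift of the whole table these rises were larger, with centred changes in the average from 1.07 in Gm2694 and 2010110K18Rik to 1.69 in Gm48975.

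**Figure D3:**
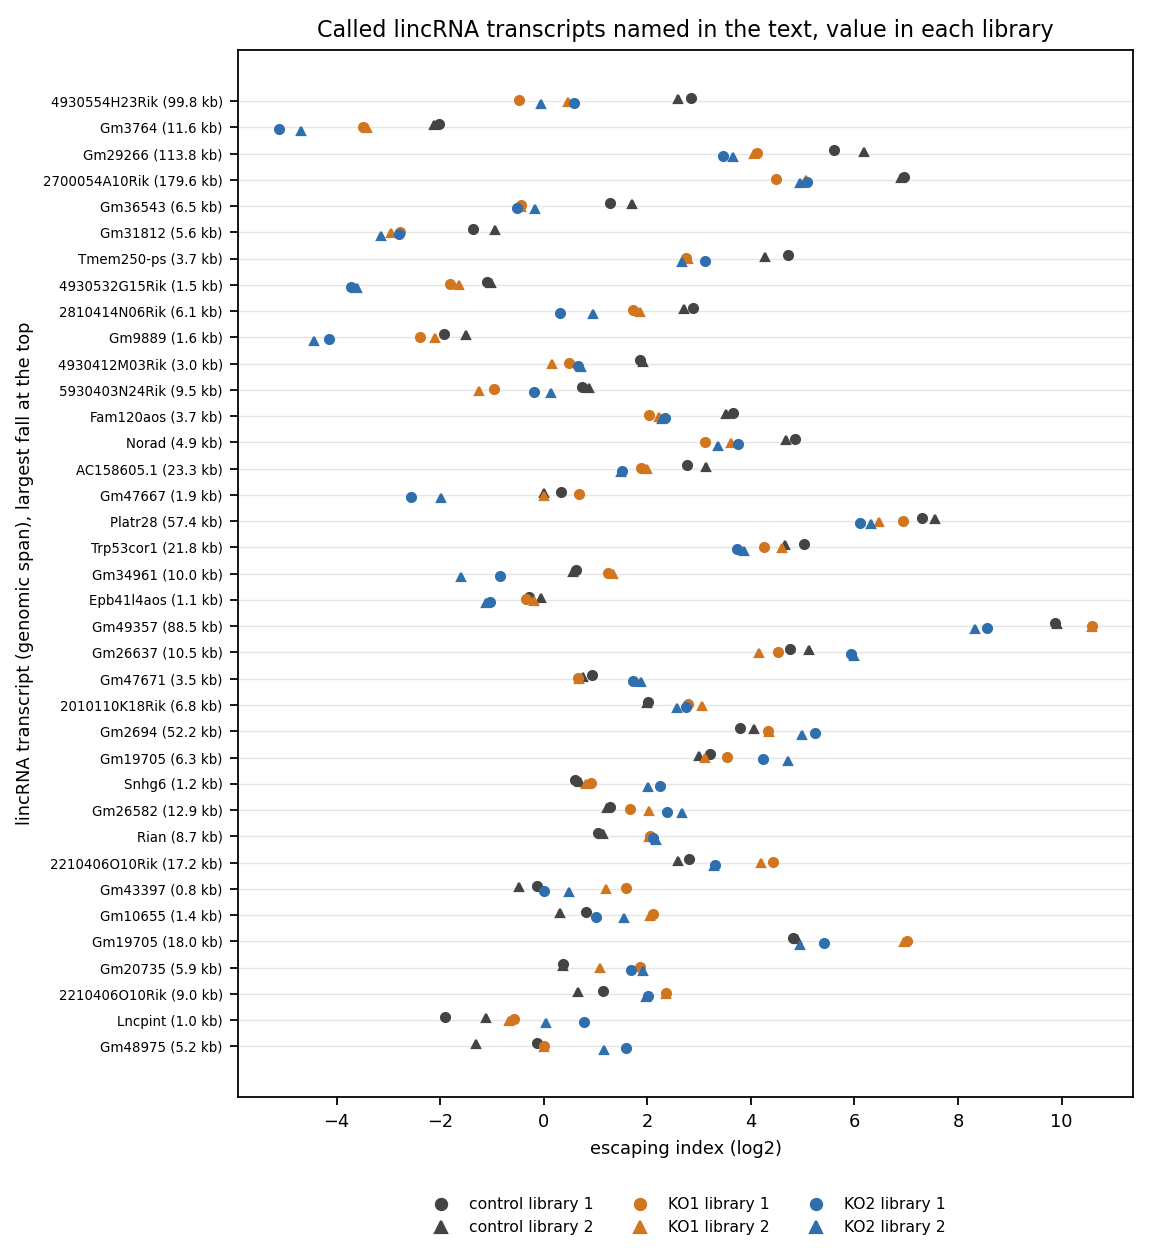
Escaping index (log2, horizontal axis) in each of the 6 libraries for 37 lincRNA transcripts chosen by the rule for named genes that passed the limma test in KO2 or in the average of both knockouts, 1 per row, with the genomic span in kb after each name (2900097C17Rik is shown as Norad). Rows run from the largest fall in the average, 4930554H23Rik (-2.58), at the top to the largest rise, Gm48975 (1.41), at the bottom.

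In KO1 no transcript passed, so the lincRNAs with the smallest p in each direction are given as values only. The lowest adjusted p was 0.0692. Below control lay 2700054A10Rik (-2.15 ± 0.23), Gm36543 (-1.93 ± 0.24), 5930403N24Rik (-1.92 ± 0.23), 4930412M03Rik (-1.57 ± 0.20) and Fam120aos (-1.46 ± 0.18). Above it lay the 17985-base model of Gm19705 (2.14 ± 0.21), Gm20670 (1.83 ± 0.30), Gm43397 (1.69 ± 0.28), the 17211-base model of 2210406O10Rik (1.62 ± 0.18) and a 9164-base model of Jpx (1.32 ± 0.19). Of the 5 below control, 4 were called lower in KO2, and 5930403N24Rik was at -0.84 ± 0.23 there (adjusted p = 0.0707). Of those above, Jpx was at 1.30 and 1.19 in control, 2.68 and 2.45 in KO1, and 1.38 and 1.25 in KO2, so its KO2 libraries overlapped the range of control. Gm20670 was at 2.35 and 2.17 in control, 4.43 and 3.76 in KO1, and 2.43 and 2.95 in KO2.

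KO1 and KO2 were also compared directly. limma called 0 transcripts of the table, the lowest adjusted p among lincRNAs was 0.186, and at an unadjusted p under 0.05 there were 167 lincRNA transcripts higher and 69 lower in KO1 than in KO2, beside 16.4% of all transcripts in either direction. The KO1 value was the lower one in 541 of 1280 lincRNA transcripts, beside 38.9% of the table. In 60 lincRNA transcripts (4.69%) both KO1 libraries lay on 1 side of both controls and both KO2 libraries on the other, beside 3.79% of all transcripts. A p that misses the threshold does not show that the knockouts act alike. The 17985-base model of Gm19705 differed by 1.80 ± 0.21, with 7.01 and 6.95 in KO1 against 5.42 and 4.95 in KO2, and the 1201-base model of Snhg6 by -1.25 ± 0.19.

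For lincRNAs with known roles in nuclear organization or genome stability, 8 symbols were looked for, with Norad under both its names, and 3 lincRNAs were measured. Norad, the noncoding RNA that binds Pumilio proteins and guards chromosome stability (listed as 2900097C17Rik, chromosome 2, 156388065 to 156392979, minus strand, 1 exon of 4915 bases), was at 4.85 and 4.68 in control, 3.10 and 3.61 in KO1, and 3.76 and 3.36 in KO2. Its 4 knockout values were all under the lower of the control values. It fell by 1.21 ± 0.25 in KO2 and by 1.31 ± 0.22 in the average (limma adjusted p = 0.0434 and 0.0351), and by 1.03 relative to the table's shift in the average. Malat1, an abundant RNA of nuclear speckles (chromosome 19, 5795690 to 5802672), was at 6.57 and 6.55 in control, 6.48 and 6.50 in KO1, and 6.08 and 6.14 in KO2, and did not pass (-0.45 ± 0.16 in KO2, adjusted p = 0.123). Neat1, the scaffold of paraspeckles (20771 bases), was at 4.87 and 4.88 in control, 4.48 and 4.47 in KO1, and 5.16 and 5.25 in KO2, on either side of control in the knockouts (-0.40 ± 0.16 and 0.33 ± 0.16, adjusted p = 0.198 and 0.209). Of the 3, then, Norad was called, beside 10% of the table called lower in KO2 and 8.69% in the average, and 3 genes are too few to set against that share.

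The imprinted domain of chromosome 12 that holds Meg3, Rian and Mirg gave 3 measured members, of 11 symbols looked for of noncoding RNAs of imprinted regions. These RNAs are made from the maternal chromosome in normal cells. By their longest models none passed: Meg3 was at 6.66 and 6.71 in control, 6.64 and 6.79 in KO1, and 5.82 and 6.57 in KO2. Rian (41451 bases) was at 6.52 and 6.60, 7.00 and 6.67, and 6.56 and 6.58 in the same order, and Mirg, a microRNA host, at 5.10 and 5.22, 4.53 and 5.02, and 4.31 and 4.90. The medians of their changes were 0.03 in KO1 and -0.49 in KO2, beside -0.21 and -0.32 over all transcripts.

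Of 4 noncoding RNAs of X inactivation looked for, Jpx and Ftx were measured. Jpx, an activator of Xist, was at 0.70 and 2.04 in control, 2.32 and 1.59 in KO1, and 1.74 and 1.85 in KO2 for its longest model (12868 bases). Ftx, which lies next to Xist (54058 bases), was at 5.83 and 6.77 in control, 6.29 and 5.82 in KO1, and 6.19 and 4.91 in KO2. In both, the control libraries lay far apart and overlapped the knockout values, and neither of these models passed the test. Ftx had 3 models, with average changes from -1.31 to -0.17, and 1 of the other models passed as a fall in the average.

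Among 46 symbols of lincRNAs linked to pluripotency or early cell fate, 18 were measured, most of them Platr genes (pluripotency-associated transcripts). By their longest models, 2 were lower and 0 higher in KO2 by the limma test, and in the average 1 was lower, Platr28. This stood beside 10% and 8.69% of the table called lower, so the list was near the background. Platr28 (chromosome 7, 107243022 to 107300396, plus strand, 57375 bases) was at 7.30 and 7.55 in control, 6.93 and 6.48 in KO1, and 6.10 and 6.31 in KO2. It fell by 1.22 ± 0.23 in KO2 and 0.97 ± 0.20 in the average (adjusted p = 0.0383 and 0.0447). Trp53cor1, known as lincRNA-p21 and placed beside the cell cycle inhibitor gene Cdkn1a, was at 5.02 and 4.66 in control, 4.25 and 4.59 in KO1, and 3.72 and 3.87 in KO2, and fell by 1.05 ± 0.22 in KO2 (adjusted p = 0.0434). The KO1 libraries of Trp53cor1 lay just below the lower control. Across its 7 models the KO2 changes ran from -1.05 to 0.75, and only this 1 passed in KO2. In 4 of the 7 the average change was below 0.

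The other 16 did not pass. Platr22 (-0.62 ± 0.24 in KO2) and Platr19 (-0.66 ± 0.18) were lowest among the Platr genes that missed the threshold (adjusted p = 0.14 and 0.0695). Platr4 (3.23 and 3.13 in control, 3.47 and 3.21 in KO2) and Platr3 (3.70 and 3.46 in control, 3.89 and 3.37 in KO2) overlapped between groups. Lncenc1, a lincRNA of naive embryonic stem cells, had the highest index of the list, at 11.93 and 9.90 in control, 9.73 and 9.65 in KO1, and 10.03 and 9.90 in KO2, and control replicate 1 stood above the other 5 libraries. Over the 18 genes the median change in KO2 was -0.25, with 13 below 0, beside -0.32 over all transcripts, and relative to the table it was 0.08 with 8 below 0.

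Host lincRNAs of small RNAs, whose introns or exons yield small nucleolar RNAs or microRNAs, gave 19 measured members of 33. By their longest models, 1 was lower and 0 higher in KO2, beside 10% of the table called lower, and in the average 0 passed, beside 9.04%. The 1 was Epb41l4aos, at -0.28 and -0.06 in control, -0.35 and -0.19 in KO1, and -1.04 and -1.11 in KO2, with a fall of 0.91 ± 0.20 (adjusted p = 0.0491). Its KO1 libraries overlapped the controls. Another model passed as a fall in KO2 in Mir9-3hg, Snhg1, Snhg5, Snhg17 and Pvt1, and as a rise in Snhg6 and Lncpint. In the average, other models of Mir9-3hg and Snhg17 passed as falls and 1 of Snhg6 as a rise. Snhg8 was at 0.82 and 0.68 in control, -0.03 and 0.25 in KO1, and -0.12 and -0.08 in KO2 (-0.85 ± 0.21, adjusted p = 0.0555), and Snhg10 at 3.85 and 3.64, 2.45 and 2.62, and 3.38 and 2.76 (-0.94 ± 0.22 in the average, adjusted p = 0.0554). Both lay below control in all 4 knockout libraries without passing.

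By their longest models, Snhg5 and Dancr stood above control in the knockouts, and Mir17hg below. Snhg5, host of U50, was at 2.70 and 2.68 in control, 3.17 and 3.06 in KO1, and 3.29 and 3.38 in KO2 (0.64 ± 0.17 in KO2, adjusted p = 0.0626). Across its 3 models the KO2 changes ran from -1.04 to 0.64, and the 1 model that passed in KO2 fell. Dancr was at 3.23 and 3.29 in control, 4.09 and 3.90 in KO1, and 3.39 and 3.43 in KO2 (0.74 ± 0.17 in KO1, adjusted p = 0.0879). Gas5, a growth arrest transcript and host of several small nucleolar RNAs that overlaps a coding gene on the opposite strand, had the highest index among these hosts, at 10.25 and 11.19 in control, 10.16 and 9.33 in KO1, and 10.27 and 10.05 in KO2. Mir17hg, which carries the miR-17-92 cluster, was at 4.72 and 4.68 in control, 3.90 and 3.95 in KO1, and 4.43 and 4.29 in KO2. The median change of the 19 hosts in KO2 was -0.31, with 13 below 0, beside -0.32 over all transcripts.

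Many genes had several lincRNA models in the table, and these did not move as 1 unit. There were 203 such genes with 649 transcripts. The range of the average change within a gene had a median of 0.46 and reached 2.46, and in 84 of the 203 genes the transcripts lay on both sides of 0. Of 37 genes with a call in KO2, 6 had every transcript called. Models of a gene share reads where they overlap, so they are not independent.

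Rian had 17 models, and 1 passed. The 8741-base model that rose starts 47073 bases after the gene's first start, among other models that start within 2 kb of it. A 5206-base model that starts at 46745 was at 0.40 and 0.39 in control, 0.09 and 0.56 in KO1, and 0.64 and 0.36 in KO2. A 10345-base model that starts at 46741 was at 2.08 and 2.05, 1.77 and 2.14, and 2.25 and 1.96 in the same order. So 2 models that start just before the risen one did not separate the groups.

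Lncpint, a lincRNA induced by p53, had 14 models. Its single-exon model of 961 bases near the end of the gene was at -1.90 and -1.12 in control, -0.58 and -0.67 in KO1, and 0.78 and 0.05 in KO2, and rose by 1.92 ± 0.37 in KO2 (limma adjusted p = 0.0388). Its 124916-base model was at 6.97 and 7.19 in control, 6.65 and 7.37 in KO1, and 6.66 and 5.79 in KO2 (-0.85 ± 0.38, adjusted p = 0.185). Of the 14, 10 had an average change below 0.

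Gm19705, which lies 45868 bases from Zfp281, a zinc-finger gene of embryonic stem cells, had 4 models with a different order in each. The 17985-base model was at 4.81 and 4.88 in control, 7.01 and 6.95 in KO1, and 5.42 and 4.95 in KO2, and rose by 1.24 ± 0.18 in the average (adjusted p = 0.0331). The 6255-base model was at 3.20 and 3.01, 3.55 and 3.11, and 4.24 and 4.72 in the same order, and rose by 1.37 ± 0.25 in KO2 (adjusted p = 0.0373). So KO1 stood highest in the longer model and KO2 in the shorter. The 2 models that start 12627 and 12860 bases into the gene had KO1 changes of -0.56 and -0.65, which did not pass.

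Snhg6 had 5 models. The 3 that start within 15 bases of each other at the gene's start had KO2 changes of 0.11, 0.12 and 0.18, and their libraries ran from 2.86 to 3.30. The 1201-base model that rose by 1.48 starts 895 bases further on, and an 873-base model that starts 1221 bases in was at -0.66 and -0.92 in control and -0.93 and -1.17 in KO2. In Gm2694, likewise, the 4 models that share the first start within 32 bases had average changes of -0.54 to -0.55, which did not pass, while the 52157-base model starting 582 bases in rose.

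**Figure D4:**
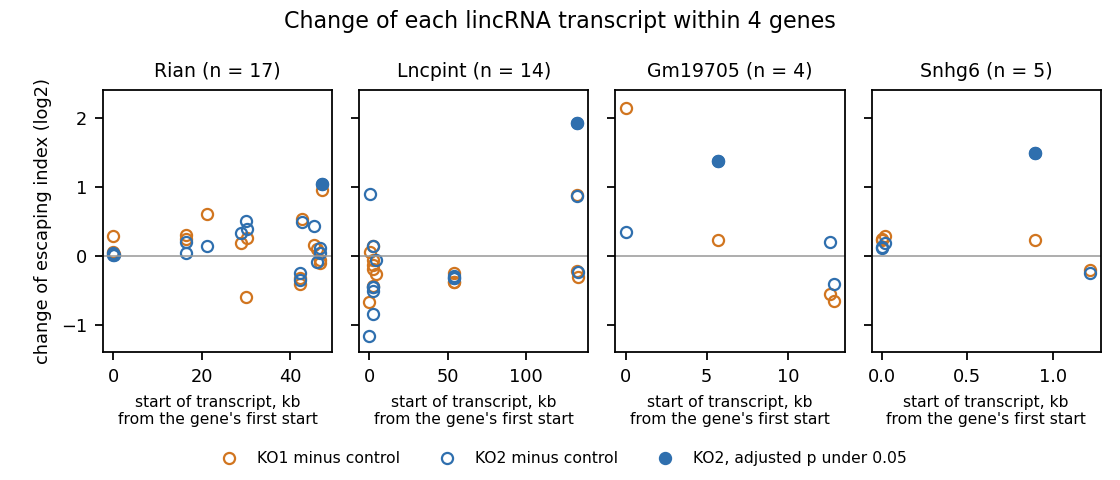
Change of the escaping index against control (log2, vertical axis) for every lincRNA transcript of Rian, Lncpint, Gm19705 and Snhg6, placed by the start of the transcript in kb from the gene's first start (horizontal axis). Open circles are changes that did not pass the limma test in that knockout, and filled circles are KO2 changes with an adjusted p under 0.05, of which each gene has 1.

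The protein-coding genes that act on noncoding transcripts were read on the same scale. All 23 looked for were measured, each by its longest coding transcript. Of these, 2 were lower in KO2, 2 in the average, and 0 higher in either, which is 8.70% each. This stood beside 10% and 8.69% of the table called lower, so their count was near that background. Among all protein-coding transcripts, 13.3% were called in KO2 and 11.6% in the average, in either direction. Ints1, a scaffold subunit of Integrator, was at 5.38 and 5.34 in control, 3.91 and 3.76 in KO1, and 4.60 and 5.02 in KO2, and fell by 1.03 ± 0.18 in the average (limma adjusted p = 0.0353). Srrt, also called Ars2, which links the cap-binding complex to early termination, was at 4.64 and 4.60 in control, 4.07 in both KO1 libraries and 3.66 in both KO2 libraries, and fell by 0.97 in KO2 and by 0.76 ± 0.13 in the average (adjusted p = 0.0349 and 0.0369). Ints6, an Integrator subunit, fell by 0.79 in KO2 (adjusted p = 0.0486), with KO1 at 5.32 and 5.62 beside 5.44 and 5.40 in control. Zc3h4, the core of Restrictor, was at 6.35 and 6.44 in control, 5.88 and 6.35 in KO1, and 6.23 and 6.90 in KO2, and did not pass. The median change of the 23 genes in KO1 was -0.28, the same as over protein-coding transcripts (-0.28). It was -0.58 in KO2 and -0.46 in the average, beside -0.43 and -0.35 over protein-coding transcripts. The 23 had a median span of 26392 bases, and over coding transcripts of 20 to 100 kb the medians were -0.49 and -0.40.

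Because Mettl3 methylates adenosine within a short consensus, the spliced sequences of the transcripts were searched for GGACT, the commonest form of it, on the transcript's strand. It occurred at least once in 834 of 1280 lincRNA transcripts (65.2%), against 80.3% of coding transcripts and 72.8% of the table, with a median of 0.94 per kb against 1.05 in coding transcripts. Neat1 held 23 in its longest model, Malat1 9 and Norad 0. The median KO2 change was -0.22 in lincRNAs with 0 occurrences (n = 446), -0.21 with 1 (n = 342), -0.25 with 2 (n = 219) and -0.36 with 3 or more (n = 273). In KO1 the same groups had medians of -0.17, -0.17, -0.17 and -0.13, so the KO2 order was not seen there. In coding transcripts the KO2 medians were -0.31, -0.38, -0.45 and -0.50. Per kb, Spearman's rho with the change was -0.04 in KO2 and 0.03 in KO1 across lincRNA transcripts. A match is a string of letters and not a methylated site, and longer transcripts hold more of them.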

How the data were processed

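The 6 libraries were sequenced from RNA held by RNA polymerase II, and the submitters' processing notes name CASAVA, Trimmomatic 0.38, HISAT2 2.1.0, featureCounts and the build mm10. The authors deposited 1 table of log2 escaping indices per transcript and library, per the file headers; the sources used here state neither its windows nor its normalization nor its use of strand. In each library, removing an offset set from the smallest value makes the commonest ratio exactly 1, so the values were read as log2 of a ratio plus that offset. Depth is unknown, and no counts were inferred.

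Transcripts were matched to GENCODE M21 (68397 of 68473). limma 3.58.1 in R 4.3.3 fitted 3 groups without scaling, with a trend in the prior variance, and Benjamini-Hochberg adjustment covered all 68473 transcripts at 0.05. An average compares both knockouts with control. Centred changes subtract each library's median. On simulated data, each transcript's spread was set to the spread seen between its own replicate libraries, and changes were planted alike in both knockouts. The fit gave back the size of the planted changes. In the comparisons with control it called a minority of them, and none in KO2. Changes were planted in few transcripts and without a shift of the whole table. The share called there therefore does not carry over to these data.

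The members and gene lists were chosen with earlier results of these data known. Named in each direction were up to 10 called genes with the smallest p and no overlap between groups, otherwise up to 5 as values; every measured listed gene by its longest transcript; and the longest and shortest 5. The transcripts with printed promoters, and the genes shown model by model, were picked after their values were seen. Alternatives were 2 normalizations, a larger offset, a filter, no trend, identical transcripts counted once, separate fits, a replicate block and leaving out each library.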

Additional observations from a re-analysis of the deposited data

Results flagged for a closer look

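Among the 92 transcripts that the naming rule chose, partly for a small p between KO1 and KO2, there were 7 in which both KO1 libraries lay on 1 side of both control libraries and both KO2 libraries on the other. Over all 1280 lincRNA transcripts there were 60 (4.69%), beside 3.79% of the whole table. The difference between KO1 and KO2 did not pass limma's test in any of them, with an adjusted p of 0.388 for Snhg12 and 0.186 for the other 6.

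KO1 stood above and KO2 below control in 3 transcripts. Gm34961, which starts 119 bases from Tut7, a uridylyltransferase gene, was at 0.63 and 0.55 in control, 1.24 and 1.33 in KO1, and -0.84 and -1.61 in KO2, a KO1-minus-KO2 difference of 2.52. Gm49357 was at 9.88 and 9.91 in control, 10.58 and 10.59 in KO1, and 8.55 and 8.32 in KO2, a difference of 2.15. Both fell in KO2 (limma adjusted p = 0.0349 and 0.0346). Gm33280 was at 0.62 and 0.42 in control, 1.79 and 1.59 in KO1, and 0.08 and 0.00 in KO2, a difference of 1.65.

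KO1 stood below and KO2 above control in 4. Gm26637, which overlaps a coding gene on the opposite strand and starts 531 bases from Eif2ak2, the interferon-induced kinase PKR, was at 4.75 and 5.12 in control, 4.52 and 4.16 in KO1, and 5.93 and 6.00 in KO2, a difference of -1.62. Gm47671 was at 0.93 and 0.76 in control, 0.66 and 0.69 in KO1, and 1.72 and 1.87 in KO2, a difference of -1.12. Both rose in KO2 (adjusted p = 0.044 and 0.0411). Neat1 differed by -0.73 and Snhg12, at 5.85 and 5.98 in control, 5.58 and 5.78 in KO1, and 6.00 and 6.03 in KO2, by -0.34.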

How the results depend on the processing

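The number of called lincRNA transcripts, 99 in KO2 and 78 in the average, went to 0 in both after median centring, after quantile normalization and without any 1 of the 6 libraries (lowest 0, highest 0), and to 0 in KO2 when only the groups of the contrast were fitted. At an unadjusted p under 0.05, median centring gave 175 higher and 146 lower in KO2, and 175 and 121 in the average. The count stayed between 90 and 102 in KO2 and between 73 and 82 in the average with 1 added on the ratio scale, a filter, identical transcripts counted once or no trend. The median change turned positive after median centring (0.059 in KO1, 0.080 in KO2, 0.061 in the average) and after quantile normalization (0.034, 0.082 and 0.050), and moved to -0.18 in KO2 and -0.15 in the average with 1 added on the ratio scale. Without 1 library it lay between -0.19 and -0.14 in KO1, -0.27 and -0.25 in KO2, and -0.23 and -0.19 in the average. The causes were not tested, beyond fewer libraries in the fits that leave some out.

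Same-numbered libraries did not deviate together as pairs (r = -0.008, -0.001 and 0.015 over all transcripts, and -0.103, 0.020 and 0.066 over lincRNA transcripts), and the labels give no shared culture or day for a number. A replicate block gave 0 calls in KO2 and 0 in the average, with 68 higher and 291 lower in KO2, and 63 and 254 in the average, at an unadjusted p under 0.05.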
